A study of Mus musculus with 22 samples.

Results

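Epididymal fat of mice that carried Gipr-/-S100a9-/- bone marrow (called double-knockout marrow) was compared with epididymal fat of mice that carried WT bone marrow. The samples were chosen by tissue and marrow as labelled, which gave 8 of the 22 arrays of the series, 4 with double-knockout and 4 with WT marrow. All mice were male and of the C57BL/6J strain, had 6 weeks for the marrow to reconstitute and were then fed for 14 weeks on a diet whose calories came to 60% from fat. WT marrow went into WT recipients. For double-knockout marrow the sources used here name no recipient. Beside these stand 4 epididymal arrays with Gipr-/- marrow, which went into WT recipients, and 10 arrays of inguinal subcutaneous fat with 3 double-knockout, 3 Gipr-/- and 4 WT marrows. The deletions lie in the transplanted cells, so blood-derived cells of the fat carry them while adipocytes and other resident cells belong to the recipient. Whether arrays come from separate mice is not stated in the labels, and the spread and every p-value refer to these samples.

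GIP is an incretin from the gut that enters the blood after eating, and its receptor, the product of Gipr, is found on pancreatic beta cells, in fat tissue and on some myeloid cells. S100A9 pairs with S100A8 to form an alarmin that neutrophils and monocytes release and that draws further myeloid cells into tissue. In obesity, epididymal fat gains macrophages that crowd around dying adipocytes, and its collagen network thickens. The pad lies against the epididymis, the duct in which sperm mature, so a dissected piece can hold epithelium, smooth muscle or sperm precursors of the male tract as well as fat. In a bulk sample, fewer cells of a type and less RNA per cell cannot be told apart. The series title names the GIP pathway and S100A8/9 in myeloid cells as its subject, and the comparison here asks how far epididymal fat under marrow without both genes departs from fat under WT marrow.

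Adiponectin (Adipoq), the adipocyte hormone, had a log2 value of 18.84 ± 0.60 with double-knockout marrow and of 19.12 ± 0.21 with WT marrow (SD, n = 4 each). The mesothelial transcription factor Wt1, which marks visceral fat, lay between 4.85 and 5.59 with double-knockout marrow and between 5.23 and 5.96 with WT marrow, and inguinal fat stayed between 2.72 and 3.56. Only Wt1 of the pair tells the depots apart, since Adipoq was as high in inguinal fat, at 18.64 to 19.37. Double-knockout array 1 was the lowest of the 8 epididymal arrays for Adipoq.

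No gene passed the threshold. Of 14502 genes tested with limma, 0 (0%) had a Benjamini-Hochberg adjusted p under 0.05, and the lowest adjusted p was 0.999. At an unadjusted p under 0.05 there were 444 genes (3.06%), 209 of them higher (1.44%) and 235 lower (1.62%) with double-knockout marrow. The median difference over all genes was -0.02 on the log2 scale, with 47.1% of the genes above 0 and 52.9% below. Differences of more than 1 log2 unit went up more often than down, with 209 genes above 1 (1.44%) and 89 genes below -1 (0.614%). That order depended on single arrays: it was 53 above 1 and 116 below -1 without double-knockout array 1, and 154 and 193 without double-knockout array 3. The counts were 509 and 228 without double-knockout array 2, 536 and 197 without double-knockout array 4, 549 and 199 without WT array 2, and 174 and 162 without WT array 4. They were 217 and 93 without double-knockout array 1 and WT array 2 together. The arrays of the 2 kinds of marrow did not overlap for 337 genes (2.32%), 153 higher (1.06%) and 184 lower (1.27%) with double-knockout marrow. What follows describes values and their spread, since no single difference passed the test.

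The targeted genes were dim in whole fat and separated no groups. Gipr had log2 values of 4.02, 6.1, 4.14 and 5.28 with double-knockout marrow, against 5.07, 4.55, 4.81 and 4.71 with WT marrow (difference 0.10, SE 0.40). S100a9 had 5.36, 5.07, 4.78 and 5.53 with double-knockout marrow, against 5.89, 5.40, 4.95 and 5.24 with WT marrow (difference -0.18, SE 0.32). S100a8, its partner, lay between 3.74 and 6.59 with double-knockout marrow and between 4.76 and 6.53 with WT marrow (difference -0.16, SE 0.66). The groups overlapped for each of these genes, so whole fat gave no check of the marrow labels. The array's features for them may lie outside the deleted parts, which was not tested.

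Several arrays stood apart before any grouping by marrow. The first principal component of the 12 epididymal arrays held 46.5% of the variance, and double-knockout arrays 1 and 3 lay at 113 and 53.4, Gipr-/- array 1 at 74 and WT array 2 at 78.4, while the other 8 arrays lay between -65 and -12.3. The score of the epididymis epithelium list (each gene's log2 value is centred on its mean in the 12 arrays and the centred values are averaged) was 4.52, -0.56, 1.43 and -1.54 with double-knockout marrow, against -0.39, 2.77, -1.85 and -0.74 with WT marrow. It was 0.60 in Gipr-/- array 1 and at most -0.62 in the other Gipr-/- arrays, and ran between -2.28 and -1.46 in inguinal fat. The same 4 arrays were thus the ones above 0 in this score and the ones at the positive end of the component. Both kinds of marrow were among them, and double-knockout marrow held the highest score. Lists and many genes below are therefore also given with arrays left out. Leaving out double-knockout array 1 alone takes the highest epididymis score from 1 kind of marrow only, and leaving out double-knockout array 1 and WT array 2 takes the highest score from each, which leaves 3 and 3 arrays. Leaving out all 4 arrays leaves 2 double-knockout, 3 Gipr-/- and 3 WT arrays. These settings often gave different values.

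**Figure D1:**
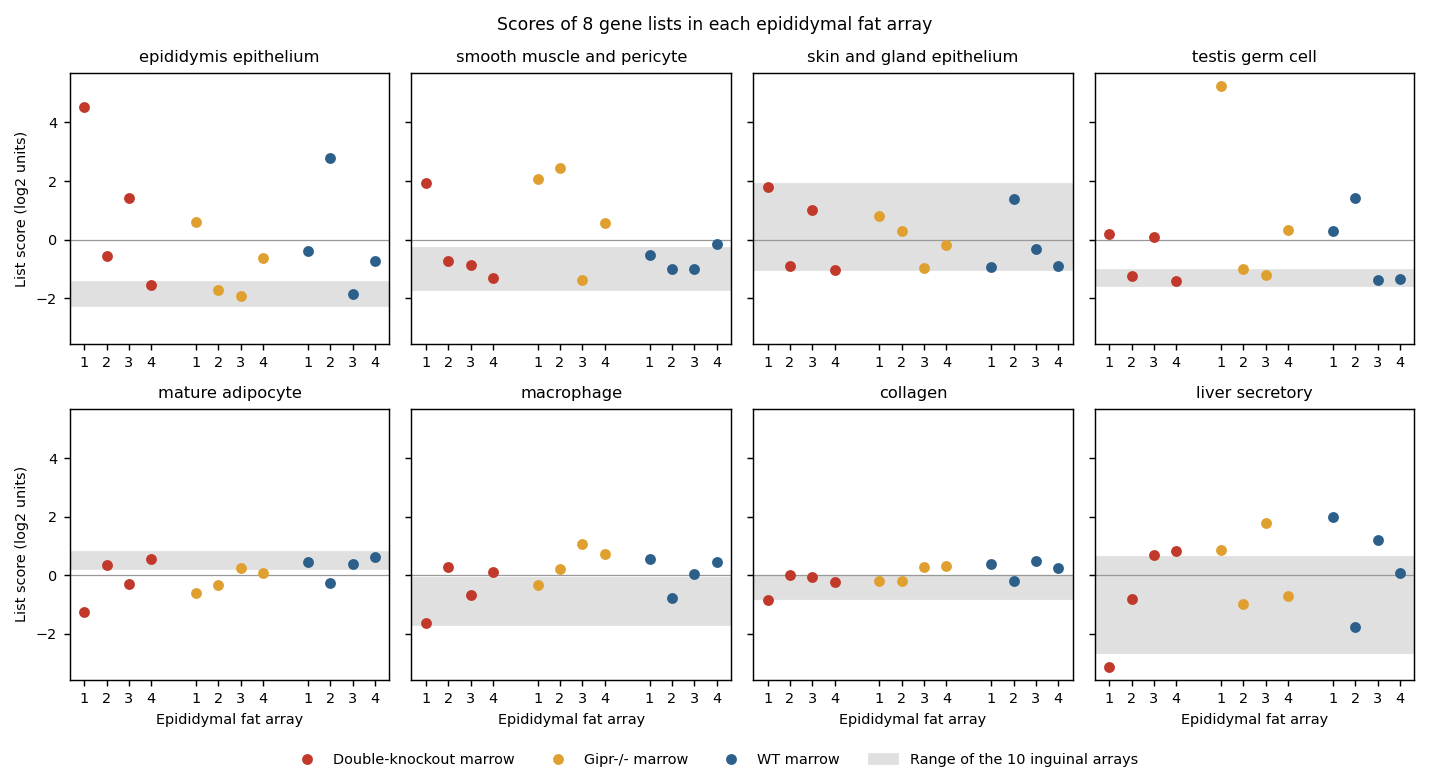
List scores (log2 units, vertical axis) of 8 gene lists in each of the 12 epididymal fat arrays (horizontal axis, numbered within each kind of marrow), with the range of the 10 inguinal arrays in grey. Double-knockout array 1 has the highest epididymis epithelium score (4.52) and the lowest mature adipocyte (-1.24), macrophage (-1.62) and liver secretory (-3.14) scores, and WT array 2 follows it in the first with 2.77.

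Genes of the epididymis gave most of the large positive differences that a list covered. Of the 38 epididymis epithelium genes tested, 34 were higher and 4 lower with double-knockout marrow, with a median difference of 1.28, and 24 exceeded 1. Of the 209 genes above 1 over all genes, 36 were on any of the 45 lists, so these 24 were the bulk of them. The median of the list was -0.04 without double-knockout array 1, with 18 genes higher and 20 lower, and 0.81 without double-knockout array 1 and WT array 2, with 24 higher and 14 lower. It was 0.43 with the first principal component as a covariate, with 30 higher. With the score of this list as a covariate it was 0.02 and without the 4 arrays above 0 in that score -0.07, but both settings use the list itself. Double-knockout array 1 and WT array 2 are the arrays highest in that score, and the component includes these genes. None of these settings is thus independent of the list. Gpx5, the secreted glutathione peroxidase of the epididymis, had the largest difference of all genes tested: its log2 values were 18.94, 11.50, 6.17 and 6.32 with double-knockout marrow, against 9.61, 4.30, 3.66 and 3.40 with WT marrow (difference 5.49, SE 2.38). The groups overlapped, WT array 1 lay above double-knockout arrays 3 and 4, and inguinal fat ran from 3.85 to 6.08. The difference of Gpx5 was 2.76 without double-knockout array 1, without it and WT array 2 it was 2.44, and without the 4 arrays it was 3.35.

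Genes that were high in only some epididymal arrays, of the epididymis or not, did not all share the same arrays. Defb35, an epididymal beta-defensin, had 17.08 in double-knockout array 1 and 6.65 to 8.46 in the other double-knockout arrays, against 6.69 to 8.54 with WT marrow. Serpina16, a serpin family gene, had 16.82, 8.03, 16.42 and 7.51 with double-knockout marrow, against 8.02, 17.27, 3.72 and 8.91 with WT marrow (difference 2.72, SE 3.17, and 3.77 without double-knockout array 1 and WT array 2). The high arrays were thus double-knockout 1 and 3 and WT 2, and Gipr-/- array 1 joined them with 14.63. Ceacam10, an adhesion molecule family member known from seminal vesicle secretion, showed the same arrays, with 13.11, 5.10, 12.99 and 5.69 with double-knockout marrow, against 5.18, 11.33, 3.91 and 5.99 with WT marrow (difference 2.62, SE 2.16). Lcn5, the retinoid-binding lipocalin of the epididymis, was high in both kinds of marrow, with 19.31, 13.46, 6.81 and 8.11 with double-knockout marrow, against 15.12, 16.46, 5.05 and 9.48 with WT marrow (difference 0.40, SE 2.79). Inguinal fat reached at most 7.88 for Lcn5, 4.91 for Serpina16 and 4.68 for Ceacam10.

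A further set of genes was high in double-knockout array 1 and in Gipr-/- arrays 1 and 2, and in no WT array. Ptgs2, an inducible prostaglandin synthase, had 16.31, 8.14, 6.94 and 5.31 with double-knockout marrow and 17.98, 17.76, 8.20 and 10.02 with Gipr-/- marrow, against 6.35, 6.65, 5.94 and 5.13 with WT marrow. Pcp4, a small calmodulin regulator, had 15.65, 7.69, 5.94 and 5.55 with double-knockout marrow and 15.87, 16.50, 7.61 and 10.79 with Gipr-/- marrow, against 4.42, 6.63, 5.11 and 4.59 with WT marrow. Calponin 1 (Cnn1), a contractile protein of smooth muscle, had 17.87 in double-knockout array 1 and 18.15 and 18.16 in Gipr-/- arrays 1 and 2, while the 4 WT arrays lay between 9.26 and 11.23. The lipid transporter gene Mfsd2a, the kinesin gene Kif5c and the presynaptic scaffold gene Rims1 had the same order, with 12.91, 11.81 and 9.86 in double-knockout array 1. For these 3 genes all 4 double-knockout arrays lay above all 4 WT arrays. Their differences were 2.34, 2.26 and 1.56 with all arrays and 0.42, 0.84 and 0.63 without double-knockout array 1, so the lack of overlap held while most of the size came from a single array. Ptgs2 belongs to the neutrophil and the cytokine lists as well. Its difference of 3.16 stood beside smooth muscle scores of 1.93 in double-knockout array 1 and 2.06 and 2.43 in Gipr-/- arrays 1 and 2, against -1.01 to -0.16 with WT marrow.

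**Figure D2:**
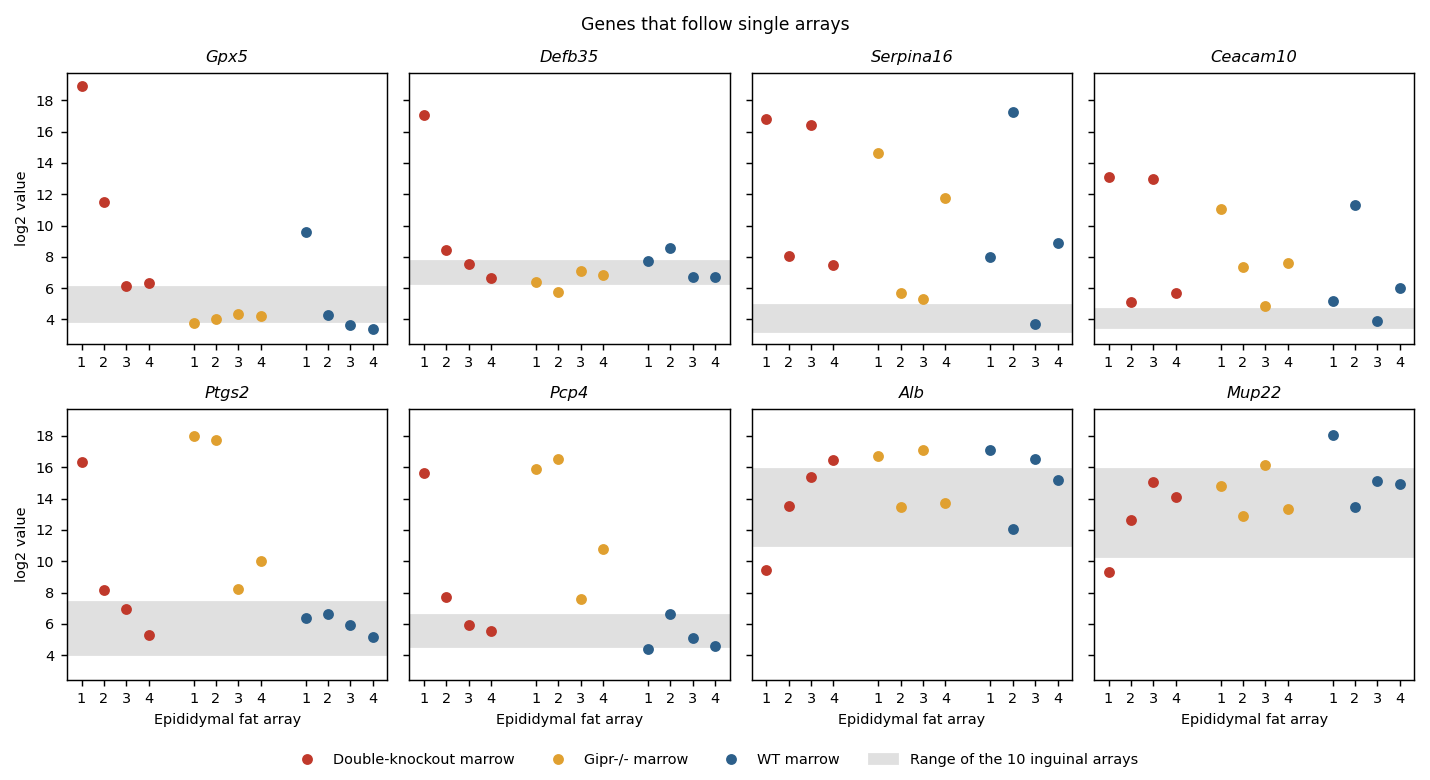
The log2 value (vertical axis) of 8 genes in each of the 12 epididymal fat arrays (horizontal axis, numbered within each kind of marrow), with the range of the 10 inguinal arrays in grey. Gpx5 and Defb35 peak in double-knockout array 1 (18.94 and 17.08), Serpina16 and Ceacam10 in double-knockout arrays 1 and 3 and WT array 2, Ptgs2 and Pcp4 in double-knockout array 1 and Gipr-/- arrays 1 and 2, and Alb is lowest in double-knockout array 1 (9.46).

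Other lists of neighbouring tissue gave smaller shifts. The smooth muscle and pericyte list had 10 of 12 genes higher with a median of 0.48, which was -0.31 without double-knockout array 1, -0.41 without it and WT array 2, and -0.54 without the 4 arrays. The skin and gland epithelium list had 16 of 18 genes higher with a median of 0.61, which was -0.17 without double-knockout array 1 and 0.49, with 15 higher, without it and WT array 2. Testis germ cell genes had 3 of 22 higher and 19 lower with a median of -0.32, which was -0.58 without double-knockout array 1 and -0.04 without it and WT array 2. Their score was at most 0.20 with double-knockout marrow, 5.26 in Gipr-/- array 1, where it was highest, and 1.41 in WT array 2. Of 7 male accessory gland genes tested, 6 were lower and 1 higher, between -1.95 and 0.92, with a median of -0.29. Svs2, a major protein of the copulatory plug, lay between 4.35 and 5.34 with double-knockout marrow, against 9.99 in WT array 2 and 5.46 to 6.30 in the other WT arrays. Svs4, a further seminal vesicle secretory protein, lay between 4.08 and 4.32 with double-knockout marrow and between 4.98 and 5.95 with WT marrow (difference -1.05, SE 0.23), all within 1 unit of the inguinal range of 4.25 to 5.20. Skeletal muscle genes, which were bright in inguinal fat, stayed low here, with scores of -0.25 to 0.34 with double-knockout marrow and -0.39 to -0.14 with WT marrow.

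Many of the positive differences were highest in double-knockout array 1. Of the 209 genes above 1, it was the highest of the 4 double-knockout arrays in 178, and by more than 2 log2 units in 89, against 4124 and 246 of the 14502 genes tested. It was the lowest of the 4 in 48 of the 89 genes below -1, against 5291 of all genes tested. A large mean difference favours genes with such an array, so these counts describe the choice. Among all 12 epididymal arrays the highest value of these 209 genes lay in double-knockout array 1 for 117, in double-knockout array 3 for 10, in Gipr-/- array 2 for 28 and in WT array 2 for 42. Their median level in inguinal fat was 4.85, against 7.66 over all genes tested. Without double-knockout array 1, 17 of the 209 stayed above 1 and their median difference was 0.32 in place of 1.32. Without double-knockout array 1 and WT array 2 together, 135 stayed above 1, 188 kept their direction and the median was 1.33. With the epididymis score as a covariate 29 stayed above 1, and without the 4 arrays 12 did. The arrays did not overlap for 7 of the 209 (3.35%, near the 2.32% of all genes).

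How many large differences remained depended on the setting. Of the 89 genes below -1, 44 stayed below -1 without double-knockout array 1, 53 with the epididymis score as a covariate and 56 without the 4 arrays. Their direction was kept in 88, 89 and 87 of them, against 157, 171 and 145 of the 209 genes above 1. Over all 14502 genes tested it was kept in 11404, 12148 and 10269, a share close to that of the 209. Some other settings kept a larger share of the 209 than of the 89. Without double-knockout array 2, 206 of the 209 and 61 of the 89 stayed, and without double-knockout array 4 it was 205 and 65. It was 127 and 49 without WT array 1, 203 and 62 without WT array 2, and 173 and 48 with array weights. Without double-knockout array 1 and WT array 2 it was 135 and 44. Further single arrays went the other way: 105 and 75 stayed without double-knockout array 3, 105 and 65 without WT array 3, and 142 and 73 without WT array 4. The median of the 89 was -1.16 with all arrays and -0.99 without double-knockout array 1, with or without WT array 2. The arrays did not overlap for 12 of the 89 (13.5%, against 2.32% of all genes). The 89 were chosen by a large mean difference, which itself favours lack of overlap. A size limit favours genes with a wide spread, and the median SE was 0.97 for these 89 genes, 1.52 for the 209 and 0.31 over all genes tested.

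**Figure D3:**
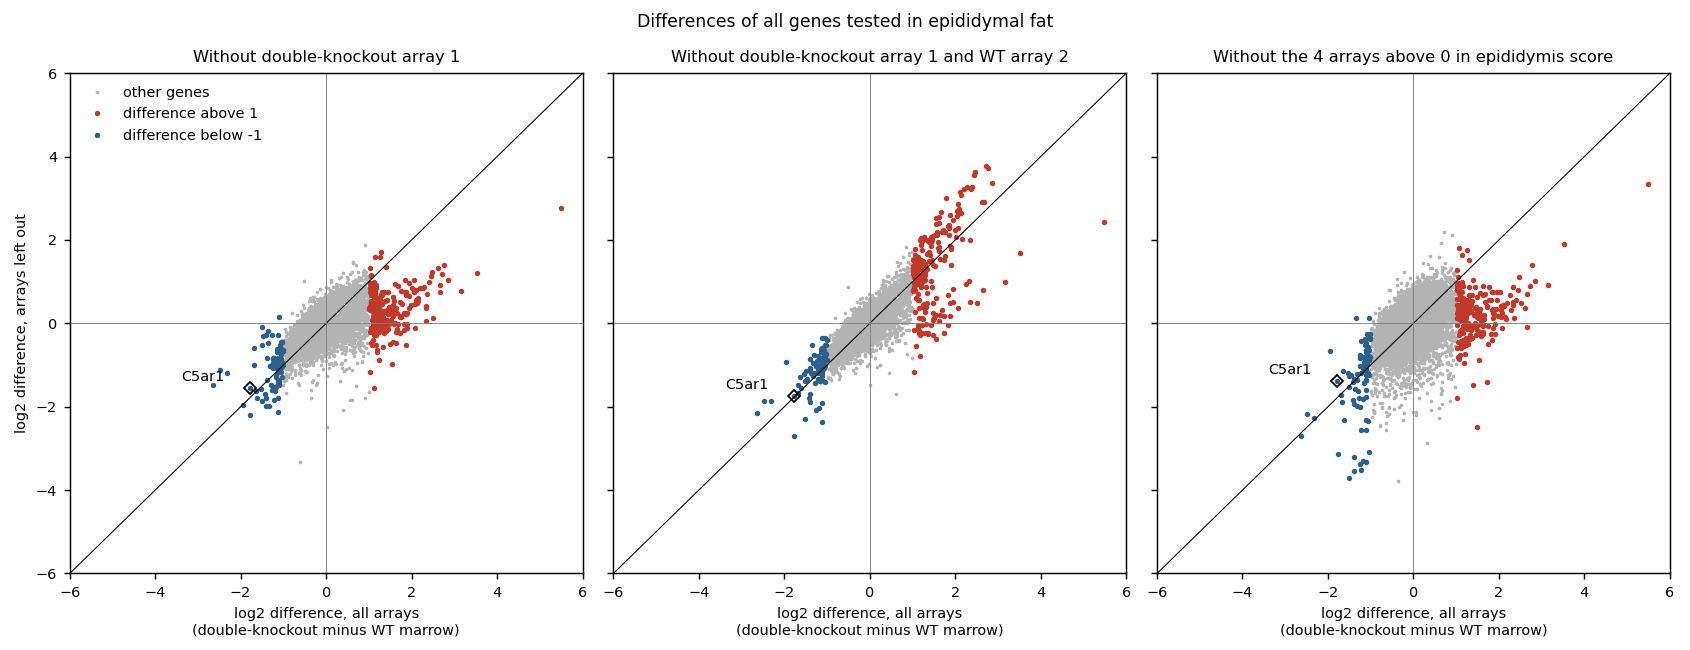
Each point is 1 of 14502 genes, with the log2 difference from all arrays (double-knockout minus WT marrow) on the horizontal axis and the difference with arrays left out on the vertical axis, the diagonal marking equal values. The 209 genes above 1 (red) have medians of 0.32 without double-knockout array 1, 1.33 without it and WT array 2 and 0.25 without the 4 arrays, and C5ar1 (-1.78) is at -1.56, -1.75 and -1.38.

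Plasma protein genes of the liver were among the largest negative differences, with a wide spread in both kinds of marrow. All 15 liver secretory genes tested were lower, with a median of -0.85, and 7 were below -1. The median was -0.10 without double-knockout array 1, with 10 lower and 5 higher, and -0.83, with 15 lower, without it and WT array 2. It was -1.18 without the 4 arrays and 0.39, with 14 higher, with epididymis, testis and muscle scores as covariates. Albumin (Alb) had 9.46, 13.55, 15.37 and 16.46 with double-knockout marrow, against 17.11, 12.05, 16.52 and 15.16 with WT marrow (difference -1.50, SE 1.53). The difference of Alb was -0.08 without double-knockout array 1 and -1.14 without it and WT array 2. Mup22, one of the major urinary proteins that carry pheromones, had 9.31, 12.61, 15.03 and 14.10 with double-knockout marrow, against 18.06, 13.45, 15.15 and 14.95 with WT marrow (difference -2.64, SE 1.25), the largest negative difference of all genes tested. The groups overlapped for both genes, and the difference of Mup22 was -1.49 without double-knockout array 1. All 8 major urinary protein genes tested were lower, between -2.64 and -0.80, with a median of -1.68, which was -1.04 without double-knockout array 1 and -1.58 without it and WT array 2. Mup9, Mup19, Mup3 and Mup21 had differences of -2.48, -2.32, -1.69 and -1.68. These copies are nearly identical, so the array may read them together and they count as 1 uncertain signal. The liver secretory score was lowest in the 2 arrays with the highest epididymis scores, at -3.14 in double-knockout array 1 and -1.76 in WT array 2, though not in double-knockout array 3 (0.69).

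Genes of the fat cell itself were mostly below 0 in their difference, by an amount that varied with the arrays used. Of 17 mature adipocyte genes, 16 were lower with a median of -0.46. The median was -0.04, with 11 lower, without double-knockout array 1 and -0.18, with 16 lower, without it and WT array 2. It was -0.23, with 16 lower, with the first principal component as a covariate and -0.02 without the 4 arrays. Their score was -1.24, 0.36, -0.29 and 0.55 with double-knockout marrow, against 0.45, -0.25, 0.40 and 0.61 with WT marrow. Among these arrays the 2 lowest, double-knockout 1 and 3, and the lowest WT array, number 2, were those with the highest epididymis scores. The Gipr-/- arrays did not all follow that order. Their adipocyte scores were -0.59, -0.34, 0.24 and 0.09, and array 2, at -0.34, had an epididymis score of -1.71. Perilipin 1 (Plin1), the lipid droplet coat protein, had 13.08, 15.15, 13.91 and 15.54 with double-knockout marrow, against 15.24, 14.19, 15.75 and 15.93 with WT marrow (difference -0.86, SE 0.53, and -0.41 without double-knockout array 1). Leptin (Lep), the satiety hormone, was 15.44 in double-knockout array 1 and between 17.79 and 18.53 in the other double-knockout arrays, against 17.52 to 18.46 with WT marrow. The difference of Lep was -0.46 with all arrays and 0.22 without double-knockout array 1.

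Lists of adipocyte metabolism were mostly below 0 as well. The lipolysis and droplet list had 12 of 14 genes lower with a median of -0.50, which was -0.07 without double-knockout array 1 and -0.21 without it and WT array 2. The fatty acid oxidation list had 14 of 18 lower with a median of -0.25, and -0.01 and -0.19 in the same settings. The lipogenesis list had 13 of 16 lower with a median of -0.29, and -0.04 and -0.21. Oxidative phosphorylation subunits were split, 11 higher and 11 lower. They were 17 higher and 5 lower (median 0.15) without double-knockout array 1, and 8 higher and 14 lower (median -0.08) without it and WT array 2. Among the lipolysis genes, Abhd5, the protein that switches on adipose triglyceride lipase, was the 1 of 14 whose groups did not overlap. It had 11.11, 11.70, 11.24 and 11.36 with double-knockout marrow, against 11.91, 11.76, 11.93 and 11.88 with WT marrow (difference -0.52, SE 0.17, close to the list median). Its highest double-knockout and lowest WT values were 11.70 and 11.76. The difference was -0.44 without double-knockout array 1 and -0.38 without the 4 arrays, and in inguinal fat it was 0.16. Pde3b, the phosphodiesterase through which insulin restrains lipolysis, overlapped, with a difference of -0.77 (SE 0.31, and -0.51 without double-knockout array 1).

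Insulin signalling genes were lower in 13 of 20, with a median of -0.26, which was -0.17 without double-knockout array 1 and -0.27 without it and WT array 2. Irs2, an insulin receptor substrate, had 11.72, 12.64, 11.57 and 11.55 with double-knockout marrow, against 12.89, 12.92, 12.88 and 12.16 with WT marrow (difference -0.84, SE 0.36). A single pair of arrays overlapped, double-knockout 2 and WT 4, and the difference of Irs2 was -1.24 in inguinal fat. Branched-chain amino acid breakdown was lower in 15 of 17 genes with a median of -0.37, which was -0.17 without double-knockout array 1 and -0.40 without it and WT array 2. Bckdhb, a subunit of the committed dehydrogenase of that pathway, had a difference of -0.93 (SE 0.37) with all arrays and -0.64 without double-knockout array 1. Glucocorticoid response genes were lower in 15 of 16, with a median of -0.56, which was -0.23 without double-knockout array 1 and -0.41 without it and WT array 2. Zbtb16, a glucocorticoid-induced zinc finger factor, and the metallothionein Mt2 had differences of -0.95 (SE 0.41) and -0.80 (SE 0.34), and of -0.74 and -0.55 without double-knockout array 1. Rasd1, the dexamethasone-induced Ras protein, went the other way, with 9.15, 8.31, 10.32 and 8.25 with double-knockout marrow, against 8.39, 8.72, 6.6 and 6.76 with WT marrow (difference 1.39, SE 0.58). Its groups overlapped, and its difference was 1.34 without double-knockout array 1.

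Macrophage genes were lower in 18 of 18 tested, with a median of -0.48. The median was -0.10, with 13 lower, without double-knockout array 1 and -0.13 without the 4 arrays. It was -0.43 without double-knockout array 1 and WT array 2 and -0.28 with the first principal component as a covariate, with 18 of 18 lower in each. The score was -1.62, 0.27, -0.69 and 0.10 with double-knockout marrow, against 0.55, -0.76, 0.05 and 0.44 with WT marrow, and the groups overlapped. Adgre1, a macrophage surface marker, had 7.65, 10.13, 8.63 and 9.32 with double-knockout marrow, against 10.98, 8.79, 9.90 and 10.25 with WT marrow (difference -1.05, SE 0.57). Mrc1, the mannose receptor of tissue-resident macrophages, had 12.69, 15.01, 13.02 and 14.41 with double-knockout marrow, against 15.55, 14.65, 14.81 and 15.05 with WT marrow (difference -1.23, SE 0.52). Double-knockout arrays 1 and 3 were low for both genes and arrays 2 and 4 lay within or near the WT range. The differences of Adgre1 and Mrc1 were -0.62 and -0.87 without double-knockout array 1.

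Other myeloid lists had medians nearer to 0 with all arrays. Lipid-associated macrophage genes, which mark macrophages around dying adipocytes, were lower in 16 of 18 with a median of -0.36, which was -0.08 without double-knockout array 1 and -0.26 without it and WT array 2. Trem2 and Gpnmb, the lipid-sensing receptor and a surface glycoprotein of these cells, had differences of -0.23 (SE 0.49) and -0.29 (SE 0.77). Neutrophil genes had a median of -0.18 over 11 tested and monocyte genes -0.29 over 12. These were -0.10 and -0.07 without double-knockout array 1, and -0.24 and -0.29 without it and WT array 2. Cxcr2, the chemokine receptor that draws neutrophils, was dim and did not overlap, with 4.21 to 4.85 under double-knockout marrow and 4.89 to 5.26 under WT marrow (difference -0.51, SE 0.23, and 0.35 in inguinal fat). Of the S100 and alarmin receptor genes 13 of 15 were lower with a median of -0.30, which was -0.03 without double-knockout array 1 and -0.22 without it and WT array 2. S100a11, a broadly expressed S100 protein, had 17.30, 18.25, 17.22 and 17.36 with double-knockout marrow, against 18.87, 18.56, 18.16 and 18.10 with WT marrow (difference -0.89, SE 0.31, and -0.65 in inguinal fat). It was lower in 3 of the 4 double-knockout arrays than in any WT array. Interferon response genes were split 10 to 10. They were 16 higher and 4 lower without double-knockout array 1 (median 0.28), and 9 higher and 11 lower without it and WT array 2 (median -0.02). T and NK cell genes had a median of -0.35 over 15 and B and plasma cell genes -0.06 over 11, against -0.22 and -0.07 without double-knockout array 1.

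Collagen genes, the fibres and sheets of the matrix, were mostly below 0 too. Of 20 tested, 18 were lower with a median of -0.56. The median was -0.26 both without double-knockout array 1 and without the 4 arrays, and -0.48, with 17 lower, without double-knockout array 1 and WT array 2. Their score was -0.84, 0.02, -0.06 and -0.23 with double-knockout marrow, against 0.37, -0.20, 0.48 and 0.24 with WT marrow, and WT array 2 was the one that overlapped. Col1a1 and Col3a1, the fibrillar collagens, had differences of -0.67 (SE 0.37) and -0.76 (SE 0.40), and of -0.64 and -0.60 without double-knockout array 1. The difference of Col1a1 was -1.10 without the 4 arrays. Col6a5, a chain of microfibrillar collagen VI, had 6.91, 5.80, 7.81 and 5.20 with double-knockout marrow, against 8.18, 8.74, 7.89 and 7.39 with WT marrow (difference -1.62, SE 0.57, and 1.17 in inguinal fat). The other matrix genes were lower in 21 of 24 with a median of -0.28, which was 0.01 without double-knockout array 1 and -0.21 without it and WT array 2. All 24 overlapped, with differences between -0.83 and 0.47. Ccdc80, a secreted matrix protein of adipocytes that is on neither list, did not overlap. It had 12.28, 13.40, 12.60 and 13.68 with double-knockout marrow, against 14.52, 13.85, 14.16 and 14.32 with WT marrow (difference -1.22, SE 0.35). The difference of Ccdc80 was -0.99 without double-knockout array 1, and -0.25 in inguinal fat.

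**Figure D4:**
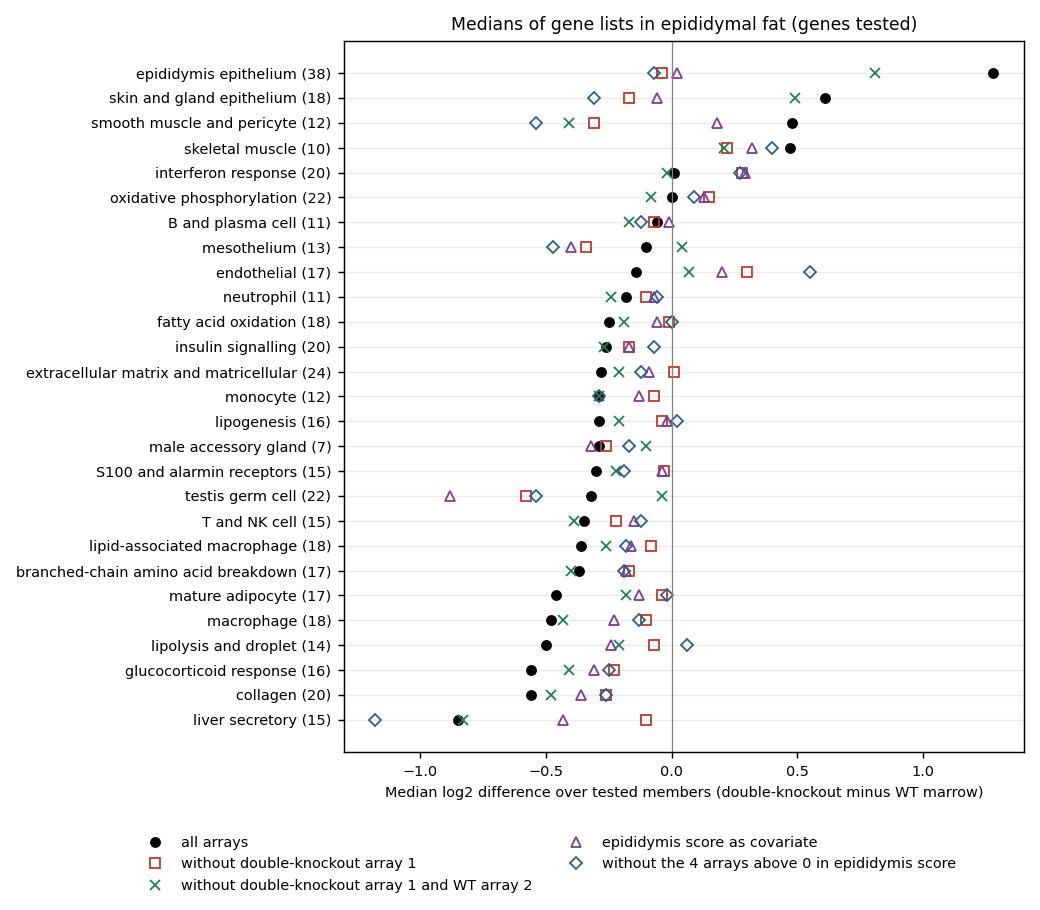
Median log2 difference over the tested genes of 27 lists (horizontal axis, double-knockout minus WT marrow), with the number of genes tested beside each list name, from all arrays (black), without double-knockout array 1 (squares), without it and WT array 2 (crosses), with the epididymis score as covariate (triangles) and without the 4 arrays above 0 in that score (diamonds). The epididymis epithelium median of 1.28 is -0.04 without double-knockout array 1 and 0.81 without it and WT array 2, and the collagen median of -0.56 is -0.26 and -0.48.

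Over the 45 lists, 34 medians were below 0 and 10 above, from -0.85 for liver secretory to 1.28 for epididymis epithelium. Without double-knockout array 1, 33 of the 45 medians were nearer to 0, and the number of lists with a median further than 0.4 from 0 was 1 in place of 10. Without double-knockout array 1 and WT array 2, 30 were nearer to 0 and 7 lay further than 0.4 from it. With the epididymis score as a covariate 35 were nearer to 0 and without the 4 arrays 26 were. Not all lists moved that way: the endothelial median was -0.14 with all arrays, 0.30 without double-knockout array 1, 0.07 without it and WT array 2 and 0.55 without the 4 arrays, and the mesothelium median was -0.10, -0.34, 0.04 and -0.47. Of the 646 distinct list genes tested, 36 exceeded 1 and 17 were below -1.

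The 337 genes whose arrays did not overlap were mostly small in size. Their median size was 0.57 log2 units and 19 exceeded 1. All 337 kept their direction without double-knockout array 1, with the epididymis score as a covariate and without the 4 arrays, which the lack of overlap fixes for the settings that leave arrays out. At least 50% of the size was kept in 333, 337 and 321 of them. The share of 2.32% is the background against which each gene below was chosen. Of 685 list members tested, with a gene counted once per list, 7 did not overlap on the lower side and 1 on the higher. That is a smaller share than over all genes.

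C5ar1, the receptor of the complement fragment C5a on neutrophils and macrophages, stood out among them in the second depot as well. In epididymal fat it had 6.45, 7.96, 6.59 and 7.44 with double-knockout marrow, against 9.35, 8.30, 9.06 and 8.84 with WT marrow (difference -1.78, SE 0.42, limma adjusted p = 0.999). In inguinal fat it had 6.16, 6.40 and 6.33 with double-knockout marrow, against 8.30, 9.01, 9.03 and 8.52 with WT marrow (difference -2.42). The groups were apart in each depot, and the 3 inguinal double-knockout arrays lay close together. In inguinal fat the limma adjusted p over all genes was 0.022 in the fit of all 22 arrays, which called 133 genes (0.917%), and 0.0591 in the fit of the inguinal arrays alone, which called 0 (0%).

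The receptor was low under Gipr-/- marrow too. C5ar1 had 6.57, 7.83, 8.06 and 8.05 with Gipr-/- marrow in epididymal fat and 8.16, 7.04 and 7.77 in inguinal fat. Within each epididymal group it was lowest in the arrays with an epididymis score above 0. These were double-knockout arrays 1 and 3 (6.45 and 6.59), Gipr-/- array 1 (6.57) and WT array 2 (8.30). Without these 4 arrays the difference from WT marrow was -1.38 for double-knockout marrow. How far tissue mixture moves C5ar1 was not tested. Over both depots the 14 arrays with marrow without Gipr ran from 6.16 to 8.16 and the 8 arrays with WT marrow from 8.30 to 9.35. C5ar1 was the 1 gene of 14502 (0.0069%) for which all 14 lay below all 8, and 0 genes (0%) lay above. This rule was chosen after the values were seen, and the 2 depots may come from the same mice. The difference of C5ar1 between double-knockout and WT marrow ran from -2.06 to -1.38 over the 26 alternatives, negative in each. The lack of overlap fixes its sign in the settings that leave arrays out. The difference between the depots was 0.64 (SE 0.55, limma unadjusted p = 0.255, adjusted p = 0.84).

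Macrophage and neutrophil medians are given beside C5ar1, though a list median and a gene picked for its values are unlike measures. Whether C5ar1 follows the amount of myeloid cells was not tested. The macrophage median was -0.48 with all arrays, -0.43 without double-knockout array 1 and WT array 2 and -0.13 without the 4 arrays, where C5ar1 was at -1.78, -1.75 and -1.38. The neutrophil median was -0.18, -0.24 and -0.06 in these settings. Single macrophage genes reached -1.23 with all arrays. C5ar2, the second receptor of C5a, is the next tested gene on the chromosome and was dim: it had 5.46, 4.83, 4.22 and 5.18 with double-knockout marrow, against 6.1, 5.41, 5.23 and 5.90 with WT marrow (difference -0.74, SE 0.39). Double-knockout array 1 lay above 2 of the WT arrays, so the groups overlapped. With Gipr-/- marrow C5ar2 had 3.34, 4.59, 5.06 and 4.72 in epididymal fat, below all WT arrays. In inguinal fat it had 4.66, 4.34 and 4.26 with double-knockout marrow and 4.80, 4.64 and 4.65 with Gipr-/- marrow. Inguinal WT arrays had 5.44, 5.33, 4.35 and 5.40, so WT array 3 overlapped with the others. Both receptor genes lie on chromosome 7, as does Gipr, with 34 tested genes between Gipr and C5ar1 in the order of the GRCm38.p6 RefSeq annotation. Among the 346 tested genes within 200 places of Gipr, 6 did not overlap in epididymal fat (1.73%), and for S100a9 on chromosome 3 it was 12 of 400 (3%), against 2.32% over all genes. Whether DNA linked to a targeted allele moves C5ar1 was not tested.

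The promoter of C5ar1 is shown because the marrow groups of this gene were apart in both depots. It spans 250 bases before to 50 bases after the gene's start (RefSeq, GRCm38.p6, chr7:16259289-16259588, minus strand, printed 5′ to 3′ along the gene), and capitals mark the letters GGAAGT or their reverse complement ACTTCC, a core bound by PU.1, the factor of myeloid cells.
C5ar1 promoter: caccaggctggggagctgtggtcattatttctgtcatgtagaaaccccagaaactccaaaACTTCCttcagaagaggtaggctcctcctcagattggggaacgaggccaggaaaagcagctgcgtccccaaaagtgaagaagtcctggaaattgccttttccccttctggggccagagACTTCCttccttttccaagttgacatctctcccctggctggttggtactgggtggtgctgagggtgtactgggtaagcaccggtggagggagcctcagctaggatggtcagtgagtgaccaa
The window held 2 matches, and 23.8% of 32851 mouse promoters of the same length held at least 1 on either strand. A match is a string of letters and not a measured site.

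Ctss, the lysosomal protease cathepsin S that antigen-presenting cells use to process MHC class II complexes, had a negative difference in epididymal fat. It had 10.27, 11.73, 11.46 and 11.14 with double-knockout marrow and 13.73, 13.72, 14.77 and 13.71 with Gipr-/- marrow, against 13.77, 11.92, 11.94 and 12.23 with WT marrow (difference from WT -1.31, SE 0.45). Double-knockout and WT arrays did not overlap, though the highest double-knockout and the lowest WT value were 11.73 and 11.92, and WT array 1 stood above the other WT arrays. The difference was -1.02 without double-knockout array 1, and 0.48 in inguinal fat. Ctss lies on chromosome 3, as does S100a9, with 60 tested genes between them. Whether DNA linked to a targeted allele moves Ctss was not tested. The MHC class II list, to which Ctss belongs, had a median of -0.12 over 10 genes, and 0.10 without double-knockout array 1. Its median was -0.19, with 8 lower, without double-knockout array 1 and WT array 2, and -0.25, with 7 lower, without the 4 arrays.

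The 10 smallest unadjusted p-values on the lower side included C5ar1, Svs4 and 8 genes of general cell function. Kdm2a, a histone H3 lysine demethylase, had 9.25, 9.02, 8.80 and 9.34 with double-knockout marrow, against 10.24, 9.87, 9.80 and 10.07 with WT marrow (difference -0.89, SE 0.18). Ints13, a subunit of the Integrator complex that cleaves nascent RNA, had 7.74, 7.90, 7.44 and 7.37 with double-knockout marrow, against 8.56, 9.28, 8.44 and 8.65 with WT marrow (difference -1.12, SE 0.24). Pus10, a pseudouridine synthase, had a difference of -0.88 (SE 0.18). None of these 3 genes overlapped, and Gipr-/- arrays lay near WT, between 9.72 and 9.90 for Kdm2a and between 8.38 and 8.91 for Ints13.

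Further genes on the lower side were Rsrc2, an arginine- and serine-rich nuclear protein gene (-0.85), the chromatin reader gene Phf20 (-0.92), the JNK scaffold gene Spag9 (-1.06), the ubiquitin ligase scaffold gene Cul4a (-0.69) and the complex I subunit gene Ndufa5 (-0.76). None overlapped between double-knockout and WT marrow. Without the 4 arrays the differences of Kdm2a, Ints13 and Pus10 were -0.86, -0.91 and -0.78, close to those with all arrays. In inguinal fat they were 0.34, 0.78 and 0.69, on the other side of 0. Cul4a had negative differences in both depots, -0.69 in epididymal and -0.39 in inguinal fat.

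On the higher side, Zfp395, a zinc finger gene, had 8.14, 8.09, 8.07 and 8.47 with double-knockout marrow, against 6.96, 6.99, 7.06 and 7.81 with WT marrow (difference 0.99, SE 0.23). Slc25a38, the mitochondrial glycine carrier of haem synthesis, had 9.60, 9.80, 10.04 and 10.05 with double-knockout marrow, against 8.99, 8.96, 9.53 and 8.96 with WT marrow (difference 0.76, SE 0.21). Neither gene overlapped, and without the 4 arrays the difference of Slc25a38 was 0.76, the same as with all arrays. Scrib, a cell polarity scaffold (0.97), Alkbh4, a demethylase of the AlkB family (0.88), and Zfyve19, a regulator of cell separation after mitosis (0.76), did not overlap either. Hspa1a, the stress-induced HSP70, had 9.26, 8.12, 8.23 and 9.81 with double-knockout marrow, against 7.70, 7.69, 7.92 and 7.95 with WT marrow (difference 1.04, SE 0.41). Its lowest double-knockout and highest WT values were 8.12 and 7.95.

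**Figure D5:**
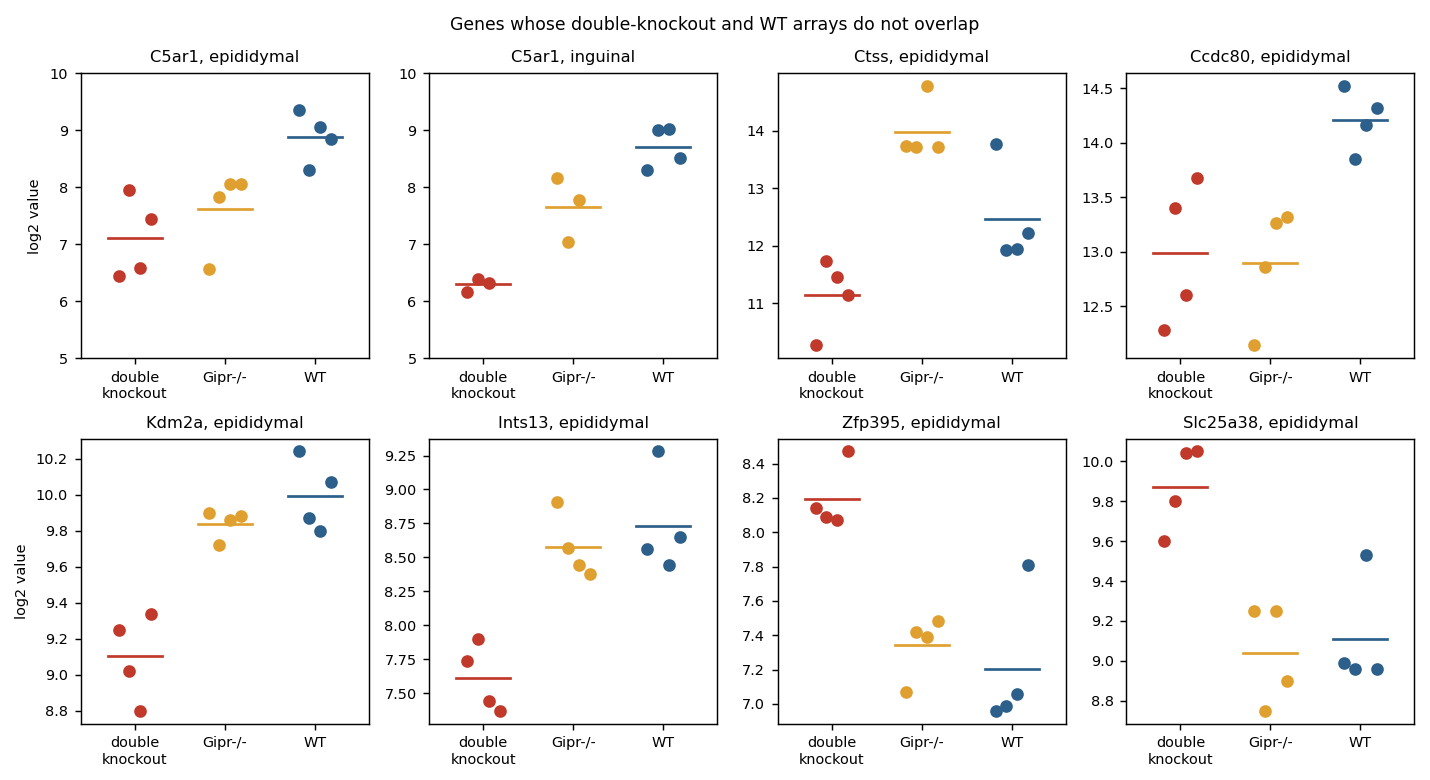
The log2 value (vertical axis) of 7 genes by kind of marrow (horizontal axis), with a point for each array and a line for the group mean, C5ar1 in epididymal and inguinal fat and the other genes in epididymal fat. The double-knockout arrays of C5ar1 lie at 6.45 to 7.96 in epididymal and 6.16 to 6.40 in inguinal fat, below all WT arrays, and vertical ranges differ between panels except for the pair of C5ar1.

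The 2 depots had few separated genes in common. Inguinal arrays did not overlap between double-knockout and WT marrow for 1592 of the 14502 genes (11%), where 3 arrays face 4. In both depots and in the same direction there were 11 genes (0.0759%), and in opposite directions 18 (0.124%). Genes in the same direction were thus fewer than those in opposite directions, and the counts show no agreement between the depots. The 11 were Btg4, C5ar1, Cables2, Cd164, Cep76, Cul4a, Meak7, Nol11, Prrc2b, Rgs6 and Taf10. C5ar1 was the largest of them in both depots. Rgs6, a brake on G-protein signalling, had differences of 1.06 in epididymal and 0.82 in inguinal fat, and Cables2 of 0.80 and 0.86. A test of the difference between depots, limma with all 22 arrays in 6 groups, called 0 of 14502 genes (0%), with 1238 (8.54%) at an unadjusted p under 0.05, so no difference between double-knockout and WT marrow was shown to be particular to epididymal fat. That count was 276 without inguinal double-knockout array 2, 2 without epididymal double-knockout array 1, and 1 without epididymal WT array 2 or without inguinal WT array 4.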

How the data were processed

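Per the labels' protocols, biotin-labelled targets from 100 ng of total RNA were hybridised to 1-colour Affymetrix whole-transcript arrays. The authors deposited 21793 features with values on a log scale, read here as log2; Partek 6.6 is named in the submitters' processing notes, and neither the base nor the normalization is stated. The platform annotation gave 1 symbol to 19341 features and 2452 are unnamed here; 19337 genes remained with 1 feature each. Values ran from 1.92 to 19.9 and array medians from 6.11 to 6.54. Precision is limited by the number of arrays.

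The 12 epididymal arrays were fitted in 3 groups with limma 3.58.1 in R 4.3.3 (lmFit, eBayes with a trend), without the 25% of genes lowest in mean, which left 14502. Tests were two-sided with Benjamini-Hochberg adjustment and a threshold of 0.05, and the fit was tested on simulated data. List scores and medians carry no test. The members and the 45 gene lists were chosen with earlier results of these data known. Named genes are the targets, the 10 with the smallest p, largest difference or largest difference without overlap in each direction, and up to 8 per list; C5ar2 and the genes apart in both depots were chosen after their values were seen. The 26 alternatives are given in the closing section, 2 of them chosen after seeing the data.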

Additional observations from a re-analysis of the deposited data

Results flagged for a closer look

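In 15 of the 176 groups of 4 arrays looked at for the genes and list scores of the text, 1 array lay far from the other 3, where chance gives about 1 in 20. A single array stood above the other double-knockout arrays in double-knockout array 1 for Mfsd2a (12.91), Kif5c (11.81) and Rgs6 (8.02), in array 2 for Irs2 (12.64) and S100a11 (18.25), and in array 4 for Zfp395 (8.47). WT array 1 stood above the other WT arrays for Gpx5 (9.61), Ctss (13.77) and the lipid-associated macrophage score (0.74). WT array 2 was above the rest in the male accessory gland score (1.37) and below it in the fatty acid oxidation (-0.44) and extracellular matrix (-0.68) scores. WT array 3 was above the rest for Slc25a38 (9.53), and WT array 4 was above the rest for Zfp395 (7.81) and below it for Irs2 (12.16). Double-knockout array 1 and WT array 2 are the arrays with the highest epididymis scores (4.52 and 2.77), whose part in these values was not tested.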

How the results depend on the processing

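The count of 0 genes called in epididymal fat held under all 26 alternatives (other filters, normalizations and weights, covariates for tissue scores, and arrays left out), with limma adjusted p-values of 0.284 or more. The count at an unadjusted p under 0.05 was 444 and ran from 299 to 917: it was 739 with array weights, 676 with the epididymis score as covariate, 917 with epididymis, testis and muscle scores and 813 with the first principal component. The depot difference called 0 genes, 292 with array weights, and 0 to 276 when 1 array was left out. For 45 of the 61 genes whose differences were examined the direction was kept in all alternatives. Several alternatives could not change a direction: other gene filters, no trend, and arrays of other groups added or left out. Where double-knockout and WT arrays did not overlap, leaving some of them out could not change it either. With the 3 tissue scores as covariates, the difference was 0.47 for S100a8, 0.10 for Adipoq, 0.34 for Lep, -0.14 for Defb35, -2.72 for Lcn5, -1.20 for Ptgs2, -0.57 for Pcp4, -1.41 for Mfsd2a, -0.28 for Kif5c, -0.64 for Rims1, -2.88 for Cnn1, 0.74 for Alb and 0.11 for Mup3. With the epididymis score alone it was 0.11 for S100a8, -1.15 for Lcn5 and -0.18 for Cnn1, and with the first principal component 0.07 for S100a8 and -0.28 for Lcn5. With array weights it was 0.26 for S100a8 and 0.20 for Gpnmb. Without double-knockout array 1 and WT array 2 it was 0.22 for S100a8, 0.08 for Lep, -0.42 for Lcn5 and -1.17 for Cnn1. Without the 4 arrays it was 0.14 for S100a8, 0.01 for Adipoq, 0.27 for Lep and -1.78 for Cnn1. Leaving out 1 array moved Gipr between -0.31 and 0.39, S100a8 between -0.60 and 0.35, Adipoq between -0.46 and 0.01, Lep between -0.81 and 0.22, Lcn5 between -2.07 and 2.10, Cnn1 between -1.17 and 2.52, Trem2 between -0.55 and 0.20 and Gpnmb between -0.82 and 0.47. The cause of these reversals was not tested. List medians moved by less than the spread between arrays in 693 of 701 cases. That spread is the SD of the list score within the groups, which arrays far from the rest widen. A median could thus change sign and still count, as that of epididymis epithelium did, from 1.28 to -0.04 without double-knockout array 1. The count does not show that the medians were stable. No paired analysis was possible because array numbers follow accession order and pair nothing. The 2 alternatives that leave out several arrays were chosen after seeing the data.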
